A study of Mus musculus with 4 samples.

Results

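Ribosomal protein genes encode the protein parts of the cytosolic ribosome. They were chosen here by name, as protein-coding genes on autosomes and the X chromosome with a symbol of Rpl or Rps and a number, together with Rplp0, Rplp1, Rplp2 and Rpsa. Kinases of the Rps6k family and genes marked as pseudogenes were left out. The choice gave 89 of the 21627 protein-coding genes of the RefSeq table for the mouse build GRCm38, and used no measured value. Of the 89, 46 encode proteins of the large subunit and 31 of the small subunit. Another 10 carry the name of a paralog or of a related gene (Rpl32l, Rpl10l, Rpl36al, Rpl39l, Rpl3l, Rpl7l1, Rpl22l1, Rps23rg1, Rps27l and Rps19bp1), and 2 carry the suffix rt (Rpl37rt and Rps27rt). Rps19bp1 has a symbol that matches the choice, but it encodes a protein that binds Rps19 and is not itself a ribosomal protein.

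The assay was ATAC-seq, which reads out open chromatin as the DNA that the Tn5 transposase can reach and tag. The cells were long-term haematopoietic stem cells (LT-HSCs), 25000 per sample, sorted from wild-type C57BL/6 mice. The design text of the series calls them LSK/SLAM cells, and the gates of the sort are not given in the sources used here. There were 2 libraries from young mice aged 4 to 5 months and 2 from aged mice of 20 to 22 months, named as biological replicates. The labels do not say whether a library held cells of 1 mouse or of several, so the spread between libraries may not be that between animals.

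Each ribosome has a large and a small subunit, and each subunit takes up a single copy of most of its proteins, so their genes are expressed at matched and high levels in nearly all cells. Their messenger RNAs start with a run of pyrimidines, the terminal oligopyrimidine motif, through which mTOR signalling controls their translation. Haematopoietic stem cells make protein slowly compared with other blood cells, and loss of 1 copy of several ribosomal protein genes causes Diamond-Blackfan anaemia, a failure of red cell production.

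The authors called peaks in each library separately, and the narrow peak lists held 106186 and 126292 distinct intervals in the young libraries and 116700 and 133131 in the aged ones. The number of reads per library is unknown from these files, so no counting error could be given for a peak. Among genes that mark haematopoietic stem cells, Kit, Ly6a, Slamf1, Procr, Hlf and Gata2 had a peak within 1 kb of a gene end in all 4 libraries, and Mecom had one in 3. None of 3 neutrophil genes (S100a8, Ngp and Elane) or of 2 T cell genes (Cd3e and Cd3g) had a peak in any library. The erythroid genes Klf1, Hba-a1 and Epor had one in 1, 3 and 3 libraries. Of B cell genes Ebf1 had a peak in all 4 and Cd79a in aged replicate 2 alone. Of 3 genes of other tissues Alb had a peak in all 4 libraries.

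Nearly all ribosomal protein genes were open at both ages. Of the 89 genes, 80 had a narrow peak centred within 1 kb of an end in young replicate 1 and 81 had one in young replicate 2. In each of the aged libraries 80 genes had one. The mean was 80.5 ± 0.707 (SD, n = 2) in young and 80 ± 0 (SD, n = 2) in aged libraries, a difference of -0.5 genes (exact permutation test, two-sided, p = 1). With 2 libraries against 2 the smallest p this test can give is 0.333. The same 80 genes had a peak in all 4 libraries, and the other gene, Rpl37rt, had a peak of 161 bp in young replicate 2 alone. Of all 21627 protein-coding genes, 15636 had a peak at an end in at least 1 library and 13919 in all 4.

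The peaks were among the strongest of each library, but start peaks of other genes also ranked high. Strength was taken as the percentile of a peak's p-value within its own library's list, and the mean over the 4 libraries had a median of 94.3 over the 80 genes. The large subunit genes had a median of 93.5 and the small subunit genes one of 94.7. The 3 genes of the ribosomal stalk, the lateral arm that recruits the elongation factors, lay between 96.9 and 97.8. The 16 genes mutated in Diamond-Blackfan anaemia lay between 90.5 and 98.2, with a median of 96.3. Counting peaks at a gene end or an annotated start, 67 genes in young replicate 1 and 72 in young replicate 2 had a peak above the 90th percentile of its list. These numbers were 68 and 76 in the aged libraries. No such count is given for other genes. At annotated starts, the median percentile of 62 ribosomal protein genes lay between 94.3 and 95.3 over the 4 libraries. For start peaks of other genes it lay between 91.2 and 92.0. Most of these thus also lay above the 90th percentile, so a high rank was not particular to ribosomal protein genes. The median fold enrichment over background at the genes was 8.30 and 8.60 for young mice and 9.18 and 10.6 for aged mice. The medians of the whole lists, in the same order, were 4.75, 4.45, 4.56 and 5.14. Peaks at annotated starts of other genes were closer to the ribosomal protein genes, with medians of 7.94, 8.10, 8.42 and 9.52. Each list carries its own scale, so these folds are not compared between ages.

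**Figure D1:**
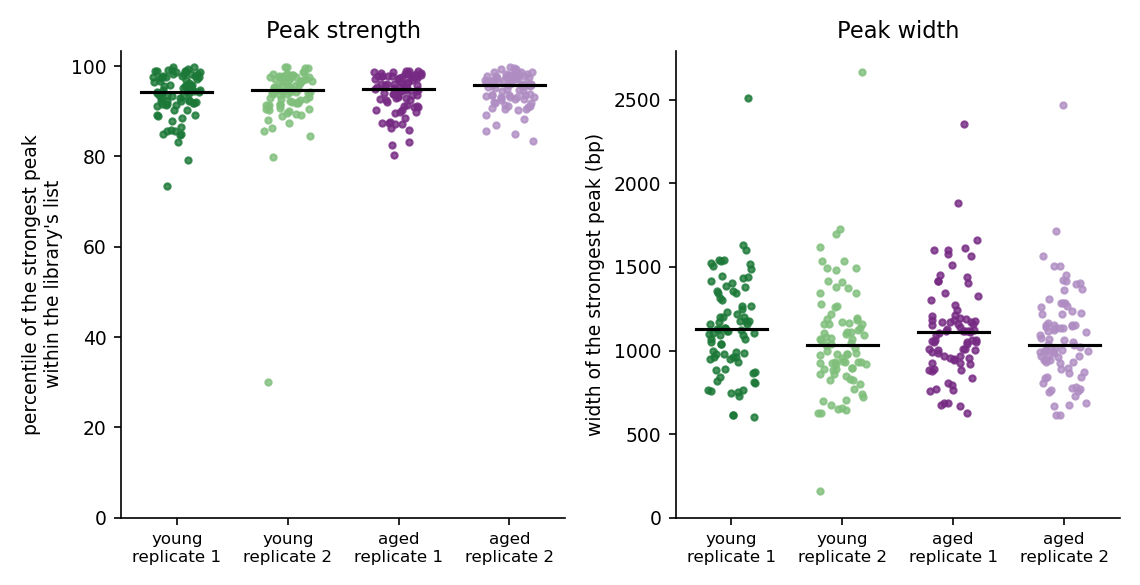
Strongest narrow peak at a gene end or annotated start of each ribosomal protein gene, as the percentile of its p-value in the library's own list (left) and its width in bp (right). Points are genes and black lines are medians over 82 or, in young replicate 2, 83 genes. Apart from Rpl37rt in young replicate 2, the genes sat above the 73rd percentile in every library.

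Rps20, a protein of the small subunit head, Rpl27 and Rps27 were the strongest genes with no site listed as changed. The fold enrichment at Rps20 was 8.85 and 10.2 for young mice and 10.3 and 10.5 for aged mice. Rpl27 had 12.9 and 11.1 for young mice and 10.7 and 13.1 for aged mice, with a mean percentile of 98.1. At Rps27 the values were 8.50 and 8.56 for young mice and 10.3 and 13.4 for aged mice. These 3 genes were near the top of every list, at the 96th percentile or above. The weakest by gene end among the genes with peaks in all 4 libraries were Rpl19, Rpl8 and Rpl22, with mean percentiles of 56.2, 84.1 and 84.9. For Rpl19 and Rpl22 the strongest peak was at an annotated start inside the gene interval, so the value by gene end does not describe that peak. At Rpl22 the percentiles of that peak were 99.8 and 97.9 in the young libraries and 98.6 and 96.7 in the aged ones. Those of Rpl19 were 83.1 and 89.3 for young mice and 82.4 and 89.3 for aged mice.

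8 genes had no narrow peak within 1 kb of either end in any library: Rpl32l, Rpl10l, Rpl39l, Rps2, Rpl17, Rps23rg1, Rps27l and Rps27rt. Rps2 and Rpl17, a small and a large subunit protein, had a strong peak inside the gene interval. At Rps2 the fold enrichment at an annotated start was 7.95 and 8.13 for young mice and 8.53 and 8.77 for aged mice. The peak within Rpl17 had folds of 7.76 and 8.79 for young mice and 9.36 and 9.43 for aged mice. Rps27l, a paralog of Rps27 that p53 induces, likewise had 11.4 and 11.9 for young mice and 12.6 and 11.8 for aged mice at its annotated start. With annotated starts included, 82 genes had a peak in all 4 libraries. Rpl32l, Rpl10l, Rpl39l and Rps27rt had no peak anywhere in their gene interval in any library. Rpl10l and Rpl39l are testis-enriched copies of the X-linked genes Rpl10 and Rpl39. All 77 genes that are neither paralogs nor rt genes had a peak in every library once the gene interval was included.

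Rpl3l, the muscle paralog of Rpl3, lies next to Rps2. It had a peak at its far end, with folds of 11.1 and 10.9 for young mice and 12.1 and 12.1 for aged mice, and none within 1 kb of its annotated start in any library. Rpl36al, Rpl7l1, Rpl22l1 and Rps19bp1 also had peaks in all 4 libraries. In contrast, of the 306 ribosomal protein pseudogenes that carry a -ps symbol, 268 (87.6%) had no narrow peak within 1 kb of an end in any library and 13 (4.25%) had one in all 4. How reads that map to more than 1 place were treated is not given in the sources used here.

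Which ribosomal protein genes differed between ages was read from the authors' deposited tables. These list sites up to a false discovery rate (FDR) of 0.05, with the log2 of the mean normalized reads in each age and no value per library. Of the 81 genes with a peak, 16 had a narrow site in the authors' deposited table that was lower in aged libraries, 19.8% (exact 95% binomial interval 11.7% to 30.1%), and none had a higher site. Over all 15636 genes with a peak at an end, 20.8% had a listed lower site and 0.0128% a higher one. The share at ribosomal protein genes was thus near the background, and the one-sided direction was that of the whole table. The 16 were 8 of the 46 large subunit genes, 6 of the 31 small subunit genes and the paralogs Rpl36al and Rpl22l1. None of the 3 stalk genes (Rplp0, Rplp1 and Rplp2) had a listed site, and neither did Rpsa or the X-linked genes Rpl10, Rpl36a, Rpl39 and Rps4x.

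Rpl36al, a paralog of Rpl36a, had the smallest FDR. The fold enrichment of its peak was 8.19 and 8.51 for young mice and 8.93 and 9.75 for aged mice, on the scale of each list. The site chr12:69183492-69185224 spans the annotated start, and its level in the authors' deposited table was 9.88 in young and 9.46 in aged libraries on the log2 scale. The log2 fold of aged over young in that table was -0.41 with an FDR of 0.00555, which ranked it 439 of the 4905 lower sites. An end of Mgat2, a glycosyltransferase gene, lies within 1 kb of the same site.

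Rpl30, a large subunit protein that binds its own transcript in yeast, had peak folds of 8.53 and 8.22 for young mice and 9.55 and 9.71 for aged mice. Its site chr15:34442716-34444479 went from 9.82 in young to 9.44 in aged libraries in the authors' deposited table, a log2 fold of -0.38 with an FDR of 0.00756. Rpl36al and Rpl30 were the only genes of the 16 with an FDR under 0.01.

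At Rpl7 the peak was the widest of the ribosomal protein genes, 2508 and 2668 bp in young mice and 2357 and 2471 bp in aged mice, so both aged values were below both young ones. An end of Rdh10 lies within 1 kb of the site chr1:16103960-16106627. The authors' deposited table gave this site 10.51 in young and 10.19 in aged libraries, the highest level among the 16 sites, with a change of -0.32 on the log2 scale (FDR 0.0119).

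Rpl15, mutated in Diamond-Blackfan anaemia, had peak folds of 8.04 and 8.12 for young mice and 8.90 and 10.6 for aged mice. Its site chr14:18270246-18271977 spans the start, with Nkiras1 on its other side. The level was 9.77 in young and 9.40 in aged libraries in the authors' deposited table, a log2 fold of -0.36 with an FDR of 0.0122. Rpl37, of the large subunit, shares its site chr15:5115840-5117506 with an end of Card6. Here the authors' deposited table gave 9.92 in young and 9.57 in aged libraries, a log2 fold of -0.35 with an FDR of 0.0152.

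Rpl34, Rps21, Rpl22l1, Rpl28, Rps6 and Rpl27a followed, each with the site at its annotated start and no end of another protein-coding gene within 1 kb. Rps6 is the small subunit protein that S6 kinases phosphorylate, and Rpl22l1 is the paralog of Rpl22. For Rpl34 the authors' deposited table had a level of 9.60 in young and 9.24 in aged libraries (FDR 0.0186), and for Rps21 the levels were 9.60 and 9.25 (FDR 0.0192). For Rpl22l1 that table had 9.66 in young and 9.30 in aged libraries with an FDR of 0.0251. The levels of Rpl28 were 9.05 and 8.64 in the authors' deposited table (FDR 0.0267), those of Rps6 9.25 and 8.90 (FDR 0.0334), and those of Rpl27a 9.58 and 9.27 (FDR 0.0391). All 6 log2 folds lay between -0.31 and -0.40.

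Rps24 and Rps29, both Diamond-Blackfan anaemia genes, and Rps14, whose loss of 1 copy contributes to the anaemia of the 5q- myelodysplastic syndrome, were closer to the threshold. Their log2 folds in the authors' deposited table were -0.37, -0.29 and -0.32, with FDRs of 0.0426, 0.0474 and 0.0474. The site of Rps18 had the lowest level, 8.41 in young and 7.95 in aged libraries in the authors' deposited table, and the largest change of the 16, a log2 fold of -0.45 with an FDR of 0.0419. It does not lie at the start of Rps18 but 4242 bp from it, past the far end of the gene and within 1 kb of B3galt4. The site of Rpl4 also lies past the gene's far end, next to Snapc5, and the authors' deposited table gave it -0.39 on the log2 scale at an FDR of 0.0476. Of the 16 sites 10 were at an annotated start, 2 at the far end, and 4 (Rpl30, Rpl7, Rps14 and Rps29) belonged to genes with no entry in the table of starts used here. At 6 sites the end of another protein-coding gene lay within 1 kb, so the site cannot be assigned to the ribosomal protein gene alone. Ends of non-coding genes were not searched, so further sites may be shared.

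**Figure D2:**
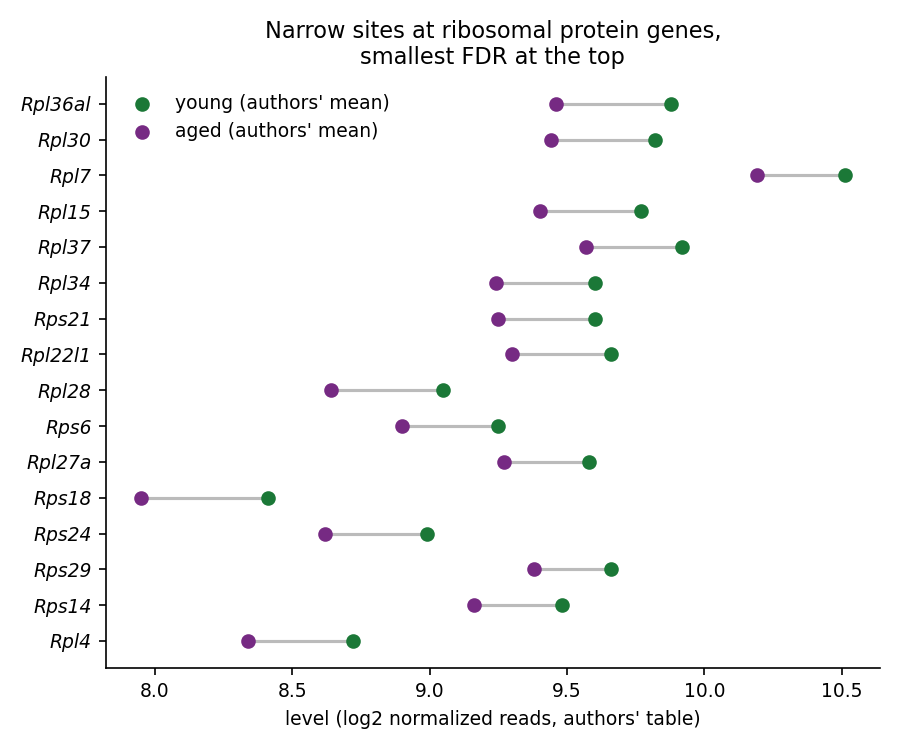
Level of the 16 listed narrow sites in young (green) and aged (purple) libraries, as the log2 of mean normalized reads in the authors' deposited table, with the smallest FDR at the top. Every site was lower in aged libraries, with log2 folds between -0.45 and -0.29, and no value per library is given in that table.

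The size of the change varied little between these genes. The median log2 fold over the 16 sites was -0.36, and the range was -0.45 to -0.29 in the authors' deposited table. A median of -0.36 puts the aged level at 77.9% of the young one. Listed lower sites near any protein-coding gene end had a median of -0.37 (2799 sites), and those of a similar level had -0.36 (1040 sites). Since a site must pass the FDR to be listed, small changes are missing from all of these medians.

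Of the 81 ribosomal protein genes with a narrow peak, 2 had a lower site in the authors' deposited broad table. None had a higher one. The 2 genes were Rpl36al, at -0.43 on the log2 scale (FDR 0.0276), and Rpl15, at -0.40 (FDR 0.0350). Over all 19904 genes with a broad peak at an end, 3.18% had a lower site and 0.0352% a higher one. The 2 of 81 are 2.47% (exact 95% interval 0.300% to 8.64%). Other genes with a narrow peak at an end gave 4.04%, and those of like strength 5.06%, both within that interval.

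How often a gene is listed rises with the strength of its peak, so the share was also set against other genes in the same of 20 bins of strength. Other genes with the strengths of the ribosomal protein genes had a listed lower site in 29.7% of cases, against the 19.8% at ribosomal protein genes, a difference of -9.96 percentage points. The 29.7% lies just within the exact interval of the ribosomal protein genes. Without paralogs and Rps19bp1, 14 of 76 genes (18.4%, exact interval 10.5% to 29.0%) were listed. The share at like strength, again 29.7%, then lay above the interval. The difference depended on what was held alike. It was -5.98 points with strength taken from the fold enrichment. Ribosomal protein genes are also short. Set against other genes of like strength and of the same range of gene length, 982 to 11774 bp, the share was 23.6% and the difference -3.82 points. Lengths were not matched within that range. With annotated starts alone, 10 of 62 ribosomal protein genes (16.1%, exact interval 8.02% to 27.7%) had a lower site at the start. All genes with a peak at an annotated start gave 23%, those of like strength 30.6%, and those of like strength in that length range 24.5%. The 30.6% lies above the exact interval at starts, while the 23% and the 24.5% lie within it. These intervals treat the genes as independent and leave out the spread between libraries, so they are no test of a difference. Both the length range and the restriction to starts were chosen after seeing the data.

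**Figure D3:**
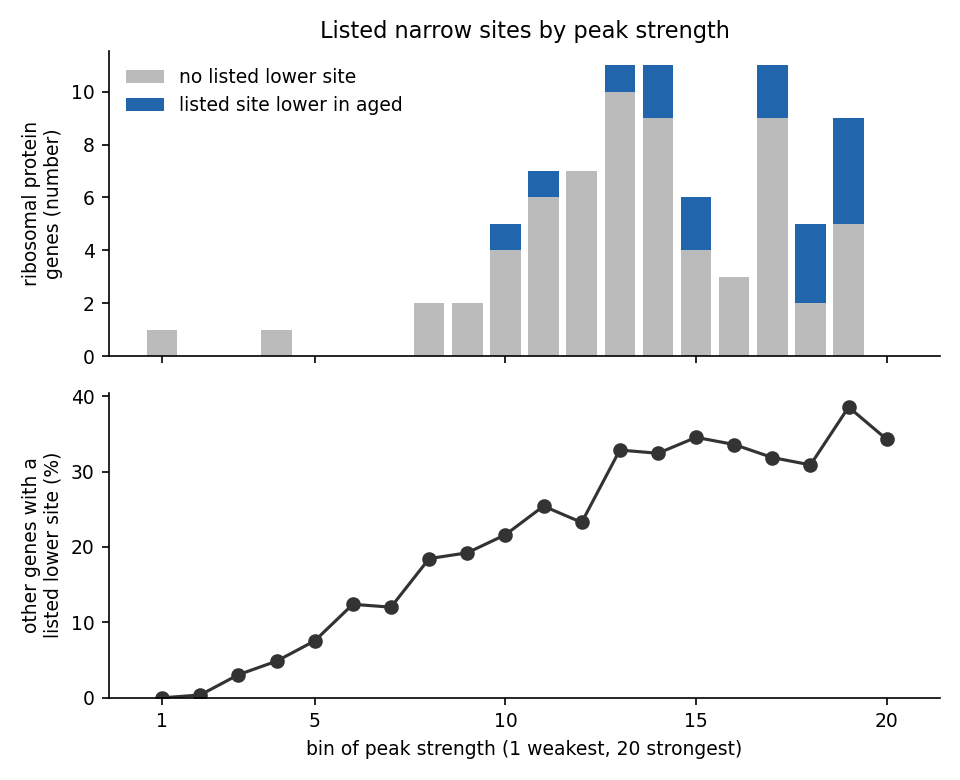
Ribosomal protein genes in each of 20 bins of peak strength, with (blue) and without (grey) a listed lower site (top), and the share of other genes with such a site in the same bins (bottom). In bins 17 to 20, 9 of 25 ribosomal protein genes were listed, and in bins 8 to 16, 7 of 54.

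The listed genes were not spread evenly over strength. In the 4 strongest bins, 9 of 25 ribosomal protein genes (36%) had a lower site, and the share of other genes was between 30.9% and 38.6% in these bins. In bins 8 to 16, 7 of 54 (13.0%) had one, and other genes had between 18.5% and 34.5%. The 2 genes in weaker bins, Rpl19 and Rpl37rt, had none. This split was made after seeing the counts and was not tested.

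The peaks at ribosomal protein genes were narrower than those at other genes of like strength in every library. Among the 62 genes with a peak at an annotated start, peaks of young mice had median widths of 1132 and 1053 bp, and those of aged mice 1079 and 1025 bp. For other genes, medians within strength bins were averaged over the bins of the ribosomal protein genes. These like-strength widths were 1281 and 1208 bp for young mice and 1246 and 1180 bp for aged mice. Without regard to strength, other genes had medians of 1190 and 1112 bp for young mice and 1139 and 1071.5 bp for aged mice. The ribosomal protein genes differed from the like-strength widths by -167 to -149 bp over the 4 libraries. The differences were on the downstream side, towards the gene body. The downstream edge lay 532 to 573 bp past the start, against 651 to 711 bp at other genes of like strength. The upstream edge lay between -516 and -457 bp, and at other genes of like strength between -521 and -480 bp. The mean number of summits per peak was 1.76 to 2.35 at ribosomal protein genes and 2.49 to 3.22 at other genes of like strength. This comparison was added after seeing the data and was not tested.

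The difference in width was smaller against other genes in the same range of gene length. Against other genes of like strength and within the same range of gene length, the widths differed by -85.1 to -73.3 bp over the 4 libraries and the downstream edges by -72.7 to -49.6 bp. The 15 genes with no named pseudogene had median downstream edges of 558 and 542 bp for young mice and 560 and 567 bp for aged mice. The 16 genes with 5 or more had edges of 575 and 548 bp for young mice and 497 and 490.5 bp for aged mice. Their median widths were 1215 and 1135 bp for young mice and 1160 and 1107.5 bp for aged mice. Those of the 15 genes were 1050 and 983 bp for young mice and 1053 and 1016 bp for aged mice. These differences were not tested. Pseudogenes without a -ps name were not counted.

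**Figure D4:**
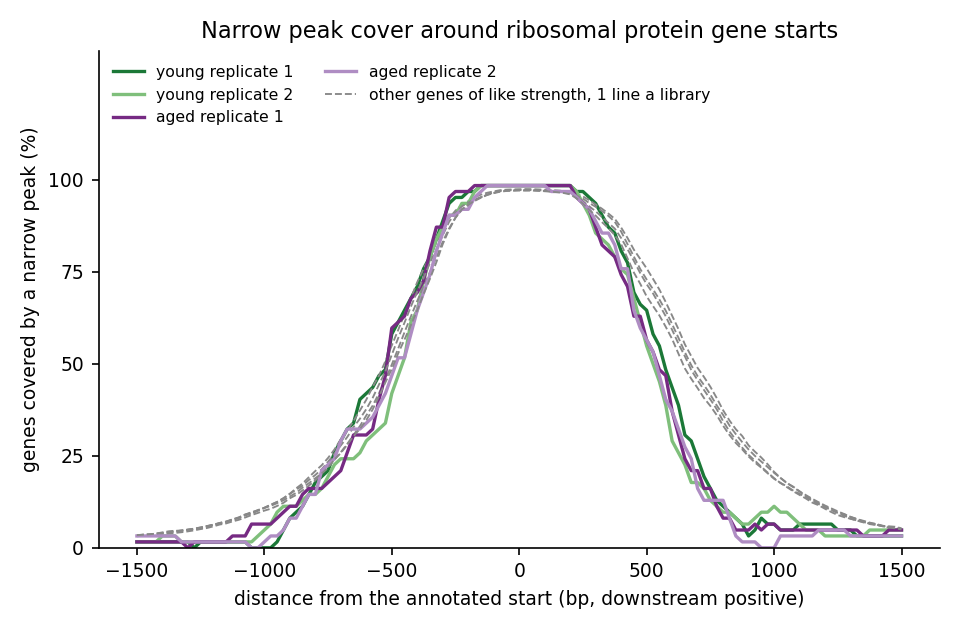
Share of the 62 ribosomal protein genes covered by a narrow peak at each distance from the annotated start, 1 coloured line per library, with other genes of like strength as dashed grey lines. At 600 bp downstream 29.0% to 43.5% of ribosomal protein genes were covered, against 56.7% to 63.0% of other genes, and at 600 bp upstream 29.0% to 41.9% against 34.7% to 40.2%.

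Neither width nor covered length separated the ages. Narrow peaks within 1 kb of the gene ends covered a mean of 1100 and 1060 bp per gene in young and 1082 and 1060 bp in aged libraries, over all 89 genes. The means were 1080.1 ± 28.3 bp (SD, n = 2) in young and 1071.0 ± 15.1 bp (SD, n = 2) in aged libraries. The difference of -9.15 bp was smaller than the spread within ages of 22.7 bp (exact permutation test, two-sided, p = 1), and the libraries overlapped. It rested on single libraries: without young replicate 1 it was 10.8 bp, and without aged replicate 2 it was 1.56 bp. Over the ribosomal protein genes with a peak the difference was -9.73 bp, and over other genes of like strength it was -28.8 bp. Gene by gene, the start peak was narrower in both aged libraries than in both young ones at 17 of 62 genes (27.4%), against 22.4% of all genes with a start peak in every library. It was wider in both aged libraries at 9 genes (14.5%), against 11.7%.

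Some motifs were more frequent in the promoters of ribosomal protein genes than at other open starts, though each of these was in fewer than 50% of them. The 300 bp windows of the RefSeq promoter table (GRCm38.p6), 250 bp before to 50 bp after the start, were searched on both strands. They were available for 69 of the 89 genes, 57 of them neither paralogs nor rt genes. The letters CCGGAAG, bound by ETS factors, were in 40.4% of these 57 windows and in 15.9% of the 12449 windows with a narrow peak at the start. TCTCGCGA, bound by BANP, was in 17.5% against 2.04%. An AAGATGGC match, part of the YY1 motif, was in 8.77% against 4.01%. GGGCGG, bound by SP and KLF factors, was no more frequent at ribosomal protein genes, 59.6% against 61.8%, and neither was CCAAT, bound by NFY, at 31.6% against 38.5%. TGANTCA, bound by AP-1, was in 1.75% against 5.08%, and CACGTG, an E-box, in 8.77% against 9.77%. TATAAA was in 10.5% against 7.69%, ACTACAA, part of the ZNF143 motif, in 5.26% against 3.96%, and GCGCATGC, bound by NRF1, in 3.51% against 4.79%. Over all 17273 windows, open or not, CCGGAAG was in 12.1% and TCTCGCGA in 1.55%. A match of letters is a description and does not show that a factor binds there.

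A start in a pyrimidine run, a C followed by at least 4 further pyrimidines, was present at 21.1% of the 57 genes and at 2.35% of all genes with an open start. It requires the annotated base to be exact. A run of at least 5 pyrimidines beginning within a few bases of the start was present at 45.6% of the 57 genes and 20.0% of the open starts. Of the 57 genes 8 had a listed lower site at the start and 49 had none. CCGGAAG was in 5 of the 8 and 18 of the 49 windows, TCTCGCGA in 2 and 8, and AAGATGGC in 0 and 5. In the same order GGGCGG was in 5 and 29, CCAAT in 4 and 14, TATAAA in 0 and 6, and CACGTG in 1 and 4. ACTACAA was in 1 and 2, GCGCATGC in 0 and 2, and TGANTCA in 0 and 1. The strict pyrimidine start was at 4 of the 8 and 8 of the 49 genes, and the run of at least 5 at 7 and 19. These differences were not tested.

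**Figure D5:**
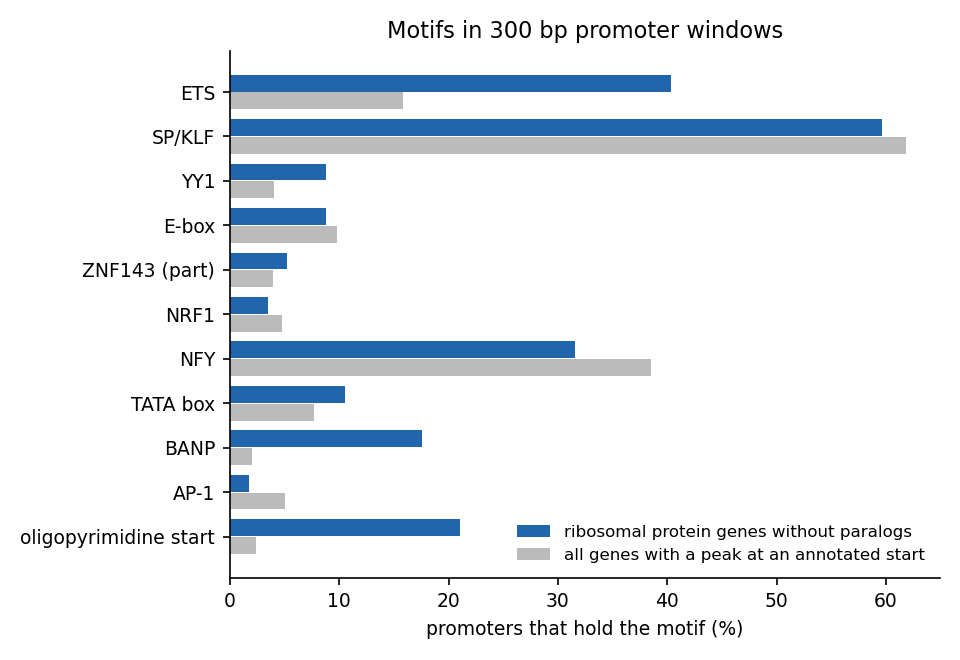
Share of 300 bp promoter windows that hold each motif, for 57 ribosomal protein genes without paralogs and rt genes (blue) and for all 12449 genes with a narrow peak at an annotated start (grey). The ETS, BANP and oligopyrimidine start bars of ribosomal protein genes, at 40.4%, 17.5% and 21.1%, reached farthest beyond the grey ones. Those of YY1 (8.77% against 4.01%), the TATA box (10.5% against 7.69%) and the ZNF143 part (5.26% against 3.96%) were also longer.

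The 250 bases before the start, 5′ to 3′ on the gene's strand, are shown for 7 genes whose window overlaps no other gene of the RefSeq table. Capitals mark matches to the motifs above on either strand. Rpl34, Rps21 and Rpl28 had the smallest FDR of the genes with a lower site at the start and such a window, Rpl22l1 being left out because its window overlaps a long non-coding RNA gene (chr3:130730399-130730648 on the minus strand, chr2:180257129-180257378 and chr7:4792715-4792964 on the plus strand). Rpl27 and Rps7 were strong and not listed (chr11:101441995-101442244, plus, and chr12:28635954-28636203, minus). Rps19 and Rpl27a hold TCTCGCGA (chr7:24884342-24884591 and chr7:109518945-109519194, both plus).
Rpl34: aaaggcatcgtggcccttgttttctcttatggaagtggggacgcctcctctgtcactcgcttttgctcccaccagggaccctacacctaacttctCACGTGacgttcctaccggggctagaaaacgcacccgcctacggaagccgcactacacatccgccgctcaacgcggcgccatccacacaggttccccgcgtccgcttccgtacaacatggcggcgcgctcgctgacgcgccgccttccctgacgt
Rps21: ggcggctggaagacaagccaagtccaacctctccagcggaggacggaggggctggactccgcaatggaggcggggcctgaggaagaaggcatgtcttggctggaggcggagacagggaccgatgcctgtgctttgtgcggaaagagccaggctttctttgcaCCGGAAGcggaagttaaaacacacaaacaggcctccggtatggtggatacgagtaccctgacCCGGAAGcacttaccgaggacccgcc
Rpl28: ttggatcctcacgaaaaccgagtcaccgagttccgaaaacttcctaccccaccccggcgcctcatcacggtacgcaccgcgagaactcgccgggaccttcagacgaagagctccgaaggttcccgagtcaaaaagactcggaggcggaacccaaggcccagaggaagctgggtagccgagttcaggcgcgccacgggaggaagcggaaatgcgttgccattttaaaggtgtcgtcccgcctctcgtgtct
Rpl27: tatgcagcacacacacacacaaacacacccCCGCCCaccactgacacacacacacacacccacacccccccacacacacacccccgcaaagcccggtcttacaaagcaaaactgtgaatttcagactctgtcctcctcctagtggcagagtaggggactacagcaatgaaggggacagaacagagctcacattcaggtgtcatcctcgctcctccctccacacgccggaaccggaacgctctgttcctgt
Rps7: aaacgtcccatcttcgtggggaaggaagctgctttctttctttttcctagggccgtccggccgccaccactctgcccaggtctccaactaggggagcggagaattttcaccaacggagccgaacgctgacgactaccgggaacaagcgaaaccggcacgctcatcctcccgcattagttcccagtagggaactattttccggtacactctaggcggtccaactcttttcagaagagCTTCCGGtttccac
Rps19: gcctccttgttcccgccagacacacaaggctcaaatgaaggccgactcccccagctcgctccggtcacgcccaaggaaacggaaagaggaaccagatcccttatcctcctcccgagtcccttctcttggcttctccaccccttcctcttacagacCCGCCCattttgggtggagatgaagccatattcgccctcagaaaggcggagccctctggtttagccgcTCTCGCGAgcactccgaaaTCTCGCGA
Rpl27a: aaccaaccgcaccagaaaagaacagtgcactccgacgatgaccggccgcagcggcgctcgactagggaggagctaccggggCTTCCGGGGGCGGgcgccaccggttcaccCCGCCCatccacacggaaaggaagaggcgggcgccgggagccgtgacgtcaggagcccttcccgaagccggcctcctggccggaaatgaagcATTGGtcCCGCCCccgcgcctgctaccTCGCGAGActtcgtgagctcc
Rps21 holds CCGGAAG at 88 and again at 26 bases before its start, and Rps7 holds it at 14 bases. Rps19, the gene most often mutated in Diamond-Blackfan anaemia, holds TCTCGCGA at 27 and 8 bases before the start, and Rpl27a holds it at 21 bases. Rpl27a has a listed lower site and Rps19 has none. The 10 genes with TCTCGCGA were Rps19, Rpl27a, Rps3a1, Rpl7a, Rps6, Rps15a, Rpl26, Rps28, Rpl12 and Rpl35, and of these Rpl27a and Rps6 had a listed lower site. In Rpl28 and Rpl34 neither CCGGAAG nor TCTCGCGA was in these 250 bases.

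The start itself is shown as 10 bases before and 15 from the start, with the pyrimidine run that covers the start in capitals, for the 3 longest runs of the 7 genes, of 20, 11 and 7 bases, and for Rps19, whose annotated first base is not a pyrimidine.
Rpl27a: cgtgagCTCCTCCCTTTTCCCTTTC
Rpl28: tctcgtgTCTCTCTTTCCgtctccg
Rps21: aggacccgCCCTCCTgcccaatagt
Rps19: aatctcgcgagactcgacgcccgac
The listing of these genes is no finding, since listed genes were picked for display. The run of Rpl27a goes on past the end of the window shown.

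Genes of the same process were also set against other genes of like strength, but not of like length. Of the 16 Diamond-Blackfan anaemia genes 3 had a lower narrow site (Rpl15, Rps24 and Rps29), 18.8% against 33.0% of other genes of like strength. Rps19, Rpl5 and Rpl11, of which the last 2 bind Mdm2 when ribosome assembly fails, had none. At Rps19 the peaks were at the 97.8 and 95.9 percentiles in young mice and at 99.0 and 97.9 in aged mice. Those of Rpl5 were at 91.3 and 94.8 in young mice and 92.7 and 94.6 in aged mice, and those of Rpl11 at 98.9 and 97.7, and 97.3 and 96.2.

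Rack1, a scaffold on the small subunit, is a ribosomal protein with a symbol outside the choice. It had a lower site, from 9.25 in young to 8.77 in aged libraries in the authors' deposited table (log2 fold -0.48, FDR 0.00566), and it was also listed in the broad table. This log2 fold was farther from 0 than that of any of the 16 sites above. Of 37 translation factor genes with a peak, 5 (13.5%) had a lower site, against 28.7% at like strength. They were Eif3a and Eif3h of the initiation factor that binds the small subunit, Eif5, the elongation factor Eef2 and Tpt1. Eif3a had the smallest FDR of these in the authors' deposited table, 0.00748, with a log2 fold of -0.40.

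Of 25 ribosome biogenesis genes 7 (28%) had a lower site, against 30.3% at like strength, among them Tsr1, the rRNA methyltransferase gene Fbl, Rrs1 and the nucleolin gene Ncl. In the authors' deposited table Tsr1 had a log2 fold of -0.42 (FDR 0.00748). Genes of the mitochondrial ribosome, which translates the mitochondrial genome, had a lower site in 17 of 75 cases (22.7%), against 27.0%. Mrpl40, Mrpl57, Mrpl50 and Mrps30 led these, and the authors' deposited table gave them log2 folds of -0.42 to -0.38. No gene of any of these lists had a higher site. Over all genes with a peak at an end, 20.8% had a lower site. The shares describe the lists, have no interval and were not set against genes of like length. No difference between them was tested.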

How the data were processed

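Per the submitters' processing notes, the tools used included FastQC 0.11.9, BWA 0.7.17, MACS2 2.1.2 and DiffBind 2.14.0, with the build GRCm38. Read shifting, duplicate removal, excluded regions and the DiffBind normalization are not given in the sources used here. The authors' deposited peak lists give each peak a fold enrichment over background and the −log10 of its p-value and q-value. The authors' deposited site tables give log2 levels, a log2 fold of aged over young, a p-value and an FDR, only for sites up to an FDR of 0.05.

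From these, intervals listed with several summits were collapsed to 1, keeping the highest values. Peaks and sites were assigned to a gene when their midpoint lay within 1 kb of either end in the RefSeq table (GRCm38.p6). Strength was the mean over libraries of the percentile of the strongest peak's −log10 p, and genes were compared within 20 bins of it. Annotated starts came from the RefSeq promoter table. Libraries were compared by an exact permutation test. Python 3.11.15, pandas 2.3.3 and scipy 1.17.1 were used, tested first on simulated data. Named genes were the 12 with the smallest narrow FDR, those in the broad table, those without a peak at an end, the 3 strongest and 3 weakest unlisted genes and up to 4 genes per list. Other genes named, among them Rps24, Rps29, Rps14, Rpl4, Rps7, Rpl3l, Rps19, Rpl5 and Rpl11, were chosen after their values were seen. The genes and lists were chosen with earlier results of these data known. The depth per library is unknown, and the intervals given cover counting of genes only. Alternatives changed the window, the FDR, the peak threshold, the strength measure and the libraries. Values of some marker and comparison genes are not reported here.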

Additional observations from a re-analysis of the deposited data

How the results depend on the processing

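With sites at an FDR under 0.01, 2 of the 16 genes with a lower narrow site (Rpl36al and Rpl30) and 0 of the 2 with a lower broad site were left. Without paralogs and Rps19bp1, 1 gene with a lower broad site, Rpl15, was left. The aged minus young difference in covered length turned to 10.8 bp without young replicate 1 and to 1.56 bp without aged replicate 2, with a range of -29.1 to 10.8 bp over the libraries left out. The difference in the number of genes with a peak was 0.5 with a window of 500 bp, and -1 to 0 over the libraries left out. Set against other genes of like strength, the share with a lower site differed by -14.5 points at annotated starts alone. It differed by -11.2 points without paralogs and Rps19bp1 and by -5.98 points with strength from the fold enrichment. The difference was -3.82 points with genes in the same length range and -3.27 points at an FDR under 0.01. It was negative in all of these and between -9.43 and -9.76 points over the libraries left out. The cause of these changes was not tested.

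With the replicate number as a replicate block the difference in covered length was -9.15 bp and that in genes with a peak -0.5, both with an exact paired permutation p = 1, where 0.5 is the smallest p that 2 pairs allow. The numbers do not mark a shared source in the labels. Deviations in covered length from the age means correlated with r = -0.0166 between same-numbered libraries across 13919 genes, which are not independent. The authors' site tables hold no library values, so their calls could not be recomputed with a library left out.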
